A study of Homo sapiens with 47 samples.

Results

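The U1 and U2 snRNA genes described here are 8 genes of the small nuclear RNA class, chosen by their symbols and by the biotype snRNA, out of 58395 genes in a table of RNA-seq counts. The same table held 1900 genes of biotype snRNA. The 6 U1 genes were RNU1-1, RNU1-2, RNU1-3, RNU1-4, RNVU1-7 and RNVU1-18, and the 2 U2 genes were RNU2-1 and RNU2-2P. All 8 were found in the table.

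The study asked how Mediator, through its subunit MED26, and the little elongation complex bear on RNA polymerase II at histone and snRNA genes. Total RNA depleted of ribosomal RNA was sequenced as paired reads of 100 bases from HEK293T cells, a human embryonic kidney line, and from an EAF1-mutant line made from it, with 3 libraries of each. Wild-type libraries came from unedited HEK293T cells. EAF1-mutant libraries came from cells in which CRISPR knock-in had replaced residues of the MED26-binding site of EAF1 with alanines on both alleles. The mutant was 1 line, so an effect of the mutation and an effect of the line cannot be told apart. The study's methods state 3 or more biological replicates per experiment. Its reporting summary says that experiments were done 3 or more times, with duplicates for the other sequencing assays. Neither says whether these RNA-seq libraries came from separate cultures, so the p-values below measure the spread between these samples. The other assays of the series were not analysed here.

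U1 snRNA is the RNA core of the U1 snRNP, which pairs with 5′ splice sites, and U2 snRNA is the core of the U2 snRNP, which pairs with branch sites. Both are made by RNA polymerase II from promoters bound by the SNAPc complex, are cleaved at the 3′ end by the Integrator complex instead of being polyadenylated, receive a ring of Sm proteins in the cytoplasm with the help of the SMN complex, and mature in Cajal bodies. EAF1 is a partner of the elongation factor ELL in the little elongation complex, and it is a surface through which that complex meets MED26.

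The wild-type replicates 1, 2 and 3 held 59137210, 52541541 and 55637032 counts, and EAF1-mutant replicates 1, 2 and 3 held 57198018, 53369621 and 66611451. Depth differed little between the groups, and the deepest library was EAF1-mutant replicate 3. Levels are given as CPM, the usual count scale per library size, with sizes adjusted by the TMM method of edgeR, and fold changes are log2 ratios of EAF1-mutant over wild-type. The filter on low counts kept 28032 genes, and 7 of the 8 members were among them. EAF1 (ENSG00000144597, chromosome 3), the mutated gene, stood at 57.3, 58.7 and 56.4 CPM in the wild-type libraries and at 19.5, 17.8 and 18.9 CPM in the EAF1-mutant libraries. The groups did not overlap, with a log2 fold change of -1.62 (SE 0.0468, adjusted p = 2.80e-20, edgeR's quasi-likelihood test with Benjamini-Hochberg adjustment, as for every adjusted p below unless another tool is named). A knock-in leaves the RNA countable, so this level checks the labels only in that it separated the groups.

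HEK293T markers were present. VIM stood at 381 ± 8.88 CPM in wild-type libraries and 199 ± 5.84 CPM in EAF1-mutant libraries (SD, n = 3), and KRT8 at 22.9 ± 1.37 and 59.3 ± 1.31 CPM. KRT18 stood at 34.4 ± 0.656 and 60.4 ± 1.38 CPM, NEFL at 53.4 ± 1.67 and 48.0 ± 1.05 CPM, and NEFM at 62.4 ± 5.56 and 25.1 ± 0.672 CPM. PAX2 was low, at 0.679 ± 0.176 and 0.869 ± 0.187 CPM. Markers of other cells were near 0 for PTPRC, with 1 to 3 counts a library, and for HBB, with 1 count in EAF1-mutant replicate 3 and 0 in the others. ALB had 1 to 13 counts a library. COL1A1 averaged 2.86 CPM (wild-type) and 4.15 CPM (EAF1-mutant). In bulk RNA, fewer cells with a given RNA and less of it in each cell cannot be told apart.

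How alike the members are shows how far counts can be assigned to a single locus. Sequences were read on the gene's own strand from GRCh38/hg38 at the positions of GENCODE v44. RNU1-1 lies at chr1:16514122-16514285 on the minus strand, RNVU1-7 at chr1:148038753-148038916 on the minus strand, RNU2-1 at chr17:43233787-43233977 on the minus strand and RNU2-2P at chr11:62841619-62841809 on the minus strand. Each U1 member was 164 bases long, and RNU1-2, RNU1-3, RNU1-4 and RNVU1-18 had the same 164 bases as RNU1-1. RNVU1-7 differed from RNU1-1 by 1 substitution. The U2 members were 191 bases long and 95.8% identical, and RNU2-2P differed from RNU2-1 by 8 substitutions.

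The other U1 loci sit close together or apart. RNU1-3 (chr1:16666785-16666948, minus strand), RNU1-4 (chr1:16740516-16740679, plus strand) and RNU1-2 (chr1:16895980-16896143, plus strand) neighbour RNU1-1 on the short arm of chromosome 1. RNVU1-18 (chr1:143729407-143729570, minus strand) lies on the long arm, as RNVU1-7 does. Of the 65 windows of 100 bases, the read length, in each of the 5 identical members, all 65 occurred elsewhere in the genome, at a median of 9 other places. For RNVU1-7, 15 of 65 windows were unique, and 76.9% occurred elsewhere. None of the 92 windows of RNU2-1 was unique, with a median of 12 other places, while 84 of the 92 windows of RNU2-2P were unique and 8.7% occurred elsewhere. A read of 100 bases can therefore be placed on RNU2-2P by its own letters at most positions, and on the 5 identical U1 members at none, as long as the read lies within the 164 bases.

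Further copies bear on the counts. RNVU1-29, RNU1-27P and RNU1-28P, which are not members, had the same 164 bases as RNU1-1. An exact copy also lies on the unlocalized scaffold chr1_KI270713v1_random, for which the GENCODE v44 annotation used here listed no gene. Whether that annotation covers scaffolds was not checked. Of the genes named only U2, 10 were identical to RNU2-1 over 191 bases. How the authors' counting treated strand and reads with several equal places is not stated in the sources at hand, so the split of counts among identical copies, and among overlapping genes, is uncertain.

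The flanks differ more than the RNAs. Over the 250 bases before the start, RNU1-3 and RNU1-4 were 100% identical, RNU1-2 was 99.2% identical to both, and RNU1-1 was 95.6% to 96.4% identical to these 3. RNVU1-7 was 85.6% identical to RNU1-1 there, RNVU1-18 73.6%, and the U2 pair 49.6%. The octamer letters ATGCAAAT, searched on both strands from 250 bases before to 50 bases after the start, were found in RNU2-1 alone, at position -221, and in 623 of 35116 RefSeq promoters of the same length (1.77%). The RefSeq promoter table matched 0 of the 8 members. The 3′ box is the element after an snRNA gene that directs cleavage, and it was searched as GTTT, 0 to 3 further bases and AAA in the 40 bases after the annotated end, on the gene's strand. It was found after RNU1-1, RNU1-2, RNU1-3, RNU1-4, RNVU1-18 and RNU2-1, and after 1361 of 62663 genes of GENCODE v44 (2.17%). The 40 bases after 4 members are shown to compare windows with and without these letters, which are in capitals.
RNU1-1 3′ flank: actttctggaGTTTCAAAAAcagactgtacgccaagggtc
RNVU1-18 3′ flank: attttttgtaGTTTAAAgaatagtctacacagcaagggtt
RNU2-1 3′ flank: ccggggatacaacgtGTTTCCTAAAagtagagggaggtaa
RNVU1-7 3′ flank: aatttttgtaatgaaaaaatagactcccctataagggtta
The box began at base 11 in the U1 genes that had it and at base 16 in RNU2-1. Its letters were not in the window after RNVU1-7 or RNU2-2P.

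RNU1-1 stood at 877, 893 and 723 CPM in wild-type replicates 1, 2 and 3 and at 664, 679 and 716 CPM in EAF1-mutant replicates 1, 2 and 3. Wild-type replicate 3 was lower than the other 2 wild-type libraries and close above EAF1-mutant replicate 3, and the groups did not overlap. The log2 fold change was -0.28 (SE 0.0534, 95% confidence interval -0.386 to -0.167, adjusted p = 8.75e-05), lower in 3 of 3 EAF1-mutant libraries. RNU1-3, of the same sequence, stood at 826, 839 and 677 CPM against 621, 635 and 673 CPM, with the same low wild-type replicate 3 and no overlap (log2 fold change -0.28, adjusted p = 8.83e-05). RNVU1-7, the copy with 1 substitution, stood at 419, 428 and 344 CPM against 316, 324 and 341 CPM. Its groups did not overlap either, and its log2 fold change was -0.28 (adjusted p = 9.80e-05). None of these 3 passed 0.01 by DESeq2 (adjusted p = 0.0139, 0.0150 and 0.0156 for RNU1-1, RNU1-3 and RNVU1-7) or by edgeR with library totals (-0.16 for each, adjusted p = 0.0143, 0.0136 and 0.0145).

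RNU1-4 stood at 176, 169 and 139 CPM in wild-type libraries and at 136, 143 and 158 CPM in EAF1-mutant libraries. EAF1-mutant replicates 2 and 3 lay above wild-type replicate 3, so the groups overlapped. Its log2 fold change of -0.15 had an adjusted p of 0.0448, short of 0.01. RNU1-2 stood at 160, 154 and 127 CPM against 124, 130 and 144 CPM, again with overlap (log2 fold change -0.15, adjusted p = 0.0441). Without wild-type replicate 3 the log2 fold change of each was -0.24, with adjusted p = 4.88e-04 for RNU1-4 and 4.78e-04 for RNU1-2, and without wild-type replicate 1 each was -0.07, with adjusted p = 0.325 and 0.332. With all 6 libraries and no filter on low counts, both stayed at -0.15, with adjusted p = 0.00121 for RNU1-4 and 0.00137 for RNU1-2.

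Of the U1 members, RNVU1-18 had the lowest counts, which depend on how reads of identical copies were placed. It stood at 19.4, 19.6 and 17.2 CPM in wild-type libraries and 14.3, 14.7 and 14.6 CPM in EAF1-mutant libraries. The EAF1-mutant libraries lay close together and below all wild-type libraries. Its log2 fold change of -0.37 (SE 0.0583, 95% confidence interval -0.487 to -0.247, adjusted p = 6.32e-06) was the furthest from 0 among the 7 tested members.

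RNU2-2P, the U2 locus that takes nearly all counts of the U2 members, stood at 89.0, 91.6 and 66.8 CPM in wild-type libraries and at 69.9, 74.9 and 71.7 CPM in EAF1-mutant libraries. Wild-type replicate 3 was the lowest of all 6, so the groups overlapped. The log2 fold change was -0.19 (SE 0.0694, 95% confidence interval -0.335 to -0.0493, adjusted p = 0.0225). Without wild-type replicate 3 it was -0.32 (adjusted p = 5.99e-06), without wild-type replicate 2 it was -0.11 (adjusted p = 0.229) and without wild-type replicate 1 it was -0.13 (adjusted p = 0.159). With all 6 libraries RNU2-2P passed 0.01 with no filter on low counts (-0.19, adjusted p = 4.60e-05) and with a replicate block (-0.18, adjusted p = 0.00381). It did not pass by DESeq2 (-0.20, adjusted p = 0.315) or by edgeR with library totals (-0.07, adjusted p = 0.406). RNU2-1 had 6, 1 and 4 counts in wild-type and 2, 2 and 2 counts in EAF1-mutant libraries, and edgeR's filter left it untested (DESeq2 adjusted p = 0.564). Its rate in EAF1-mutant over wild-type libraries was 0.475 (exact 95% interval 0.144 to 1.40, from 6 and 11 counts, covering counting error only). A difference was not detectable from so few counts. No 100-base window of RNU2-1 was unique, so its counts also depend on how reads were placed among identical copies.

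**Figure D1:**
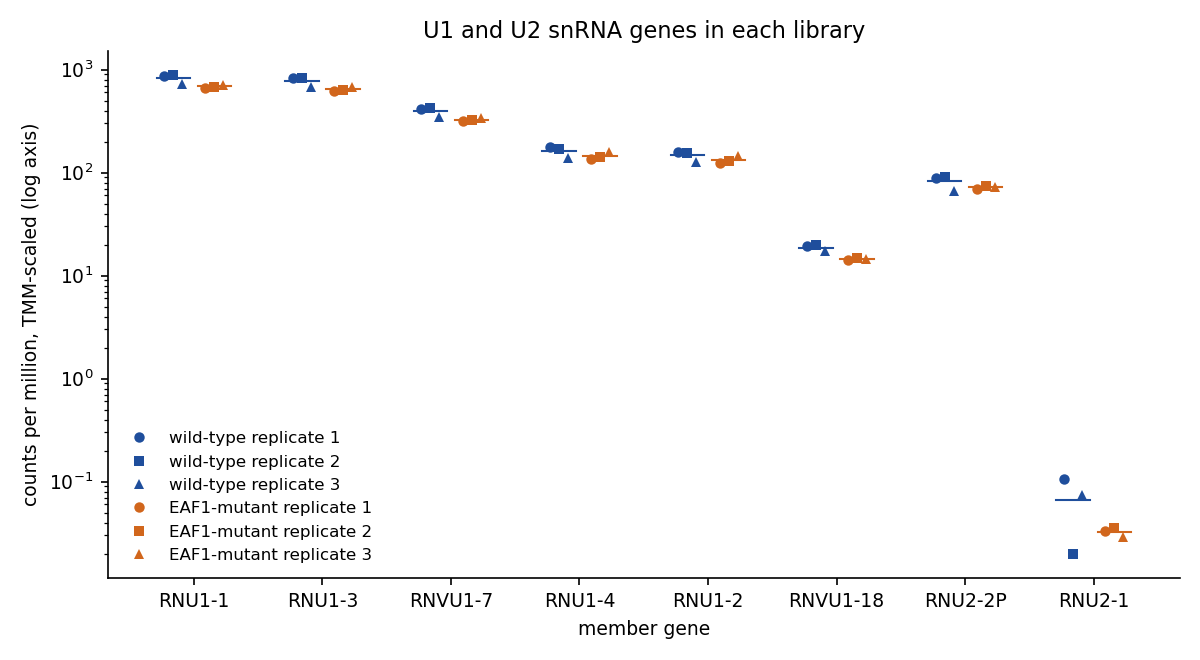
Level of each member (TMM-scaled CPM, log axis) in the 3 wild-type (blue) and 3 EAF1-mutant (orange) libraries, with the group mean as a bar. Wild-type replicate 3 (blue triangle) lies below the other wild-type libraries in the 7 members other than RNU2-1, and RNU1-1 spans 664 to 893 CPM.

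At an adjusted p under 0.01 with a log2 fold change over 0.5 in size, 0 of the 7 tested members were called in either direction by edgeR, against 20.5% of all tested genes, and 0 in the lower direction, against 9.55%. By DESeq2 the count in either direction was 0 of 8, against 9.97% of the 49036 genes to which it gave a p. At an unadjusted p under 0.05, 7 of 7 were lower by edgeR, against 28.0% of all tested genes, and 4 of the 8 had such a p by DESeq2, against 29.3%. With no limit on the fold change, 4 of 7 were lower at an adjusted p under 0.01 by edgeR, against 21.3%, and 7 of 7 at an adjusted p under 0.05, against 25.8%. With library totals these counts were 1 of 7 and 4 of 7, and the share of all tested genes at these limits was not counted. With the limit on the fold change, 1844 of 28032 tested genes were called lower under library totals, beside 2676 with TMM. By DESeq2 1 of the 8 passed an adjusted p of 0.01, RNVU1-18, against 20.5%. Every EAF1-mutant library lay below every wild-type library in 4 of 7 members, against 28.2% of all tested genes. Since 5 members share 1 sequence and reads may be split among them, these counts are not of independent genes.

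Summed over the 6 U1 members, the level was 2478, 2502 and 2027 CPM in wild-type libraries and 1874, 1925 and 2047 CPM in EAF1-mutant libraries. EAF1-mutant replicate 3 lay above wild-type replicate 3, so the summed groups overlapped by that pair, and the means were 2336 ± 267 and 1949 ± 88.5 CPM (SD, n = 3). The log2 fold change of the sum was -0.26 (SE 0.0537, 95% confidence interval -0.372 to -0.151, adjusted p = 1.81e-04), which passed 0.01 and stayed short of 0.5 in size. The sum did not pass 0.01 by DESeq2 (-0.27, adjusted p = 0.0252) or by edgeR with library totals (-0.14, adjusted p = 0.0265). Of the sum, RNU1-1 made up 35.0% to 35.7% across libraries, RNU1-3 32.9% to 33.5%, RNVU1-7 16.7% to 17.1%, RNU1-4 6.75% to 7.73%, RNU1-2 6.14% to 7.02% and RNVU1-18 0.713% to 0.847%. Summed over the U2 members, the level was 82.5 ± 13.6 CPM in wild-type libraries and 72.2 ± 2.54 CPM in EAF1-mutant libraries, with a log2 fold change of -0.19 (SE 0.0693, 95% confidence interval -0.335 to -0.05, adjusted p = 0.0220). Without wild-type replicate 3 the U2 sum was at -0.32 (adjusted p = 5.86e-06), without wild-type replicate 2 at -0.11 (adjusted p = 0.224) and without wild-type replicate 1 at -0.13 (adjusted p = 0.157).

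**Figure D2:**
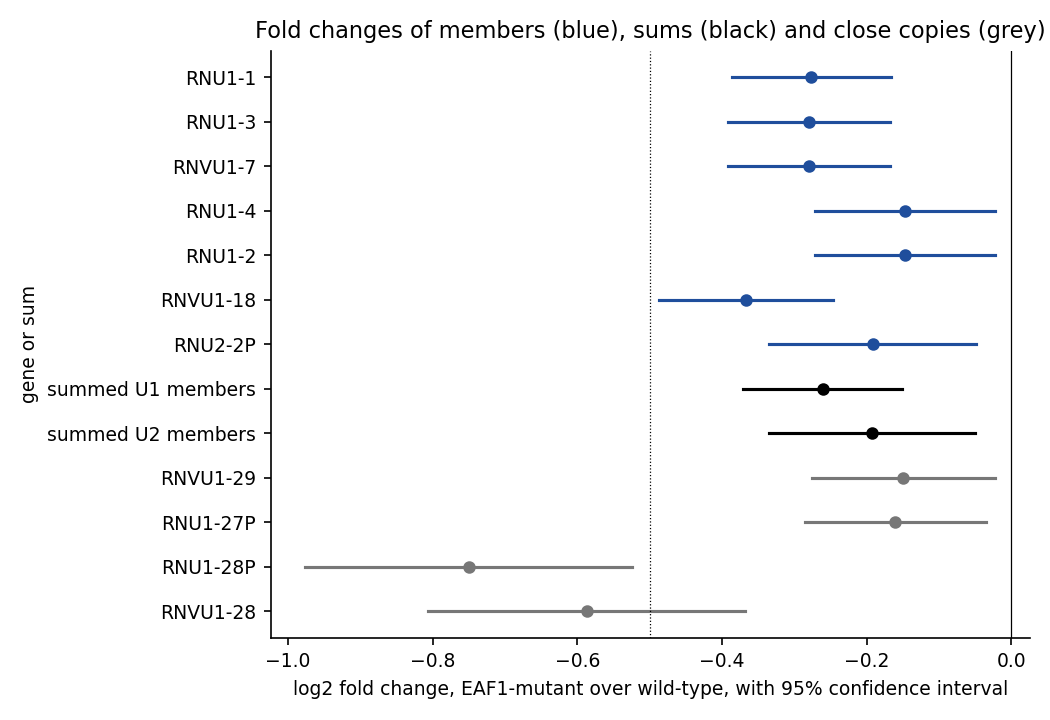
Log2 fold change of EAF1-mutant over wild-type with its 95% confidence interval, for 7 members (blue), the sums (black) and 4 further close copies (grey); the dotted line is at -0.5. The points of the members run from -0.37 to -0.15, right of that line, and RNU1-28P lies left of it at -0.75.

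Scaling matters at this size of difference. When libraries were scaled by their totals alone, the median over the 28032 tested genes moved from 0.01 to 0.13, the genes called lower and higher moved from 2676 and 3066 to 1844 and 4152, and every tested member moved up by about as much without changing sign. Under library totals RNU1-1 was at -0.16 (adjusted p = 0.0143), RNVU1-18 at -0.25 (adjusted p = 7.32e-04), RNU2-2P at -0.07 (adjusted p = 0.406) and RNU1-2 and RNU1-4 at -0.03 (adjusted p = 0.712 and 0.711). As a share of all counts, the 6 U1 members held 0.238%, 0.240% and 0.195% in wild-type and 0.196%, 0.202% and 0.210% in EAF1-mutant libraries, and these shares overlapped. The 2 U2 members held 0.00854%, 0.00877% and 0.00644% against 0.00733%, 0.00787% and 0.00738%, which overlapped as well.

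Per length, the members fell into a steep order in wild-type libraries. RNU1-1 had 5068 ± 572 CPM per kb and RNU1-3 4760 ± 547, lower than RNU1-1 within each library, followed by RNVU1-7 with 2421 ± 281. RNU1-4 had 983 ± 119 and RNU1-2 896 ± 108 CPM per kb, and RNU1-2 held 90.9% to 91.3% of the count of RNU1-4 in each library. Below them came RNU2-2P with 432 ± 71.4, RNVU1-18 with 114 ± 8.30 and RNU2-1 with 0.350 ± 0.228 CPM per kb (SD, n = 3). EAF1-mutant libraries had the same order, from 4184 ± 166 CPM per kb for RNU1-1 to 378 ± 13.3 for RNU2-2P, 88.6 ± 1.37 for RNVU1-18 and 0.171 ± 0.0172 for RNU2-1. These are levels in the deposited counts, in which identical loci share their reads in a way that is not given.

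Among the 6 U1 members and the 3 identical genes that are not members, RNU1-3 and RNVU1-7 kept close to a fixed proportion from library to library. Relative to the count of RNU1-1 in the same library, RNU1-3 had 93.6% to 94.1% and RNVU1-7 47.6% to 47.9% across all 6 libraries. RNU1-4 had 18.9% to 22.1% and RNU1-2 17.2% to 20.1%, and both proportions were higher in each EAF1-mutant library than in each wild-type library (for RNU1-4, 19.4% ± 0.581 and 21.2% ± 0.831; for RNU1-2, 17.7% ± 0.560 and 19.3% ± 0.709; SD, n = 3). The identical RNVU1-29 had 9.52% to 11.1%, and RNU1-27P, on chromosome 14, 9.07% to 10.6%. The proportions of RNVU1-18 (2.26% ± 0.0978 and 2.12% ± 0.0719) and RNU1-28P (0.570% ± 0.0425 and 0.412% ± 0.0703) lay the other way, lower in each EAF1-mutant library than in each wild-type library. After these values were seen, it was noticed that RNU1-2, RNU1-4, RNVU1-29 and RNU1-27P are the ones of these 9 annotated on the plus strand and that RNU1-1, RNU1-3, RNVU1-7, RNVU1-18 and RNU1-28P are on the minus strand. The plus-strand copies held 18.7% ± 0.464 of the counts of these 9 loci in wild-type and 20.1% ± 0.602 in EAF1-mutant libraries (SD, n = 3). RNU1-2, RNU1-4 and RNVU1-29 lie on chromosome 1 and RNU1-27P on chromosome 14. The log2 fold changes of the plus-strand copies were -0.15 for RNU1-2, RNU1-4 and RNVU1-29 and -0.16 for RNU1-27P. Those of the minus-strand copies were -0.28 for RNU1-1, RNU1-3 and RNVU1-7, -0.37 for RNVU1-18 and -0.75 for RNU1-28P. Outside these 9 loci, RNVU1-28 and RNVU1-31 on the minus strand were at -0.59 and -5.41 and RNVU1-14, RNVU1-15 and RNVU1-30 on the plus strand at -1.97, -1.99 and -1.83. What part the assignment of reads had in this was not tested.

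**Figure D3:**
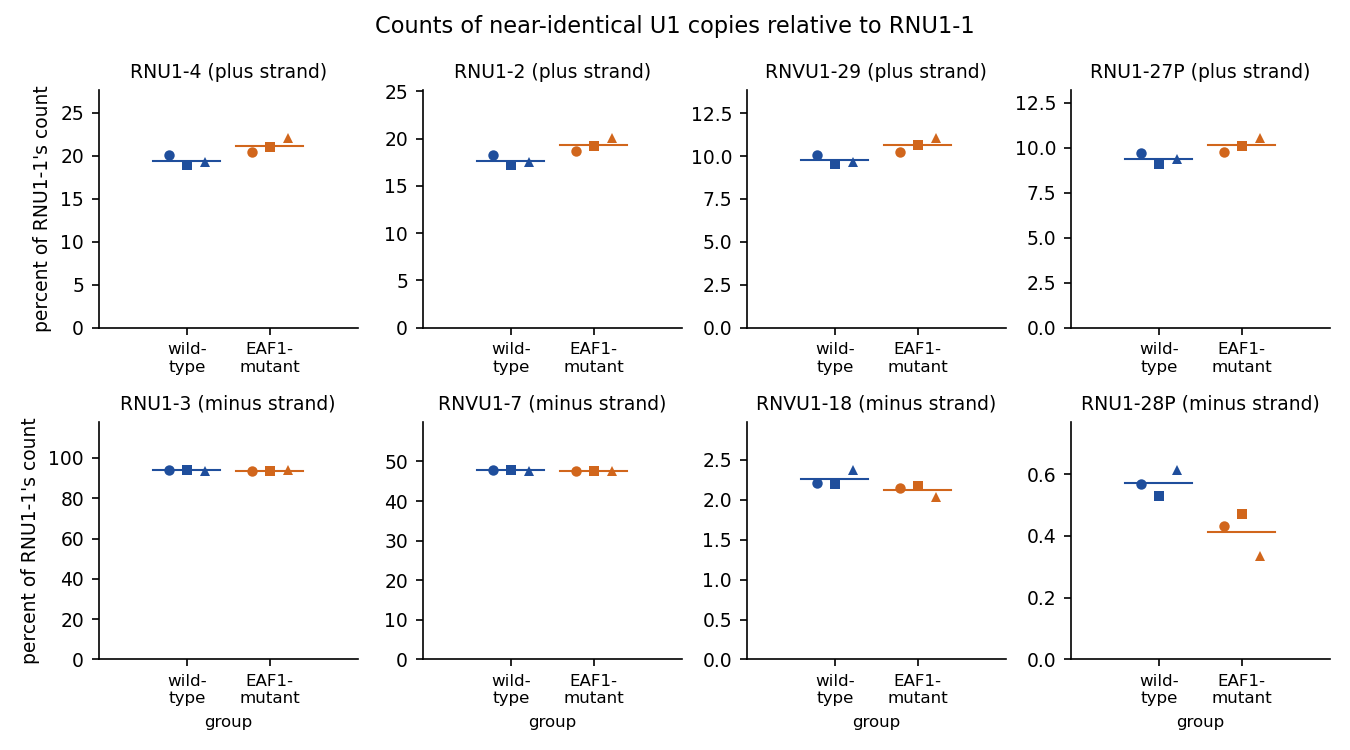
Count of 5 U1 members and of the 3 identical genes that are not members, as a percentage of the count of RNU1-1 in the same library, for wild-type (blue) and EAF1-mutant (orange) libraries, with group means as bars and each axis from 0. RNU1-3 stays between 93.6% and 94.1%, while RNU1-4 runs from 18.9% to 22.1%, higher in EAF1-mutant libraries.

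By Pearson's r of log2 CPM over the 6 libraries, among 11404 other genes averaging 10 CPM or more, the gene most like the U1 sum was ENSG00000275405 (r = 0.999). Its identifier has no entry in the GENCODE v44 annotation used here, so it has no name or position here. It held 23453, 21230 and 18192 counts in wild-type and 18713, 17918 and 23060 in EAF1-mutant libraries, which was 98.6% to 98.8% of the count of RNVU1-7 in each library. Its log2 fold change was -0.28 (adjusted p = 9.87e-05), and with it added the U1 sum was at -0.26, an alternative chosen after the data were seen. Next came SLC2A13 (r = 0.998, log2 fold change -0.13, adjusted p = 0.0327) and MED23 (r = 0.982, -0.07, adjusted p = 0.149). For the U2 sum they were WDR74 (r = 0.993), SNORA73B (r = 0.974, log2 fold change -0.17, adjusted p = 0.0293) and MT-TP (r = 0.972, -0.08, adjusted p = 0.223). The libraries shared by these values fall into 2 groups, so each r is a description.

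WDR74 is annotated over RNU2-2P on the same strand (chr11:62832342-62841809). It stood at 130, 132 and 108 CPM in wild-type libraries and 111, 115 and 115 CPM in EAF1-mutant libraries, low in the same wild-type replicate 3 as RNU2-2P. After subtraction of the CPM of RNU2-2P in each library, WDR74 averaged 40.9 ± 0.814 CPM (wild-type) and 41.8 ± 1.68 CPM (EAF1-mutant; SD, n = 3). The SD between wild-type libraries was 13.1 CPM before that subtraction. CROCC, annotated over RNU1-2 and RNU1-4 on the same strand, had 20.9, 17.2 and 19.9 CPM in wild-type libraries and 31.9, 31.5 and 31.2 CPM in EAF1-mutant libraries, which was below either member in every library.

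Genes around RNU1-1, RNU1-2, RNU1-3 and RNU1-4 lay on the other side of 0 from these members. Among tested genes within 1 Mb other than snRNA genes, the median log2 fold change was 0.59 around RNU1-1 (63 genes, 33 called higher and 0 lower by edgeR), 0.63 around RNU1-3 (56 genes, 30 higher), 0.65 around RNU1-4 (53 genes, 27 higher) and 0.63 around RNU1-2 (48 genes, 23 higher). These 4 windows share genes, and over the whole table the median was 0.01, with 3066 of 28032 genes called higher and 2676 lower. The members in them were at -0.28, -0.28, -0.15 and -0.15. Around RNVU1-7 the median was -0.24 (34 genes, 7 lower and 0 higher) and around RNVU1-18 -0.39 (20 genes, 5 lower and 0 higher), on the same side as these members. Around RNU2-2P it was 0.11 (70 genes, 2 lower and 4 higher) and around RNU2-1 0.12 (91 genes, 3 lower and 8 higher). With library totals these medians were 0.71, 0.74, 0.77, 0.74, -0.12, -0.28, 0.23 and 0.24, in the order RNU1-1, RNU1-3, RNU1-4, RNU1-2, RNVU1-7, RNVU1-18, RNU2-2P and RNU2-1, with no change of sign.

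**Figure D4:**
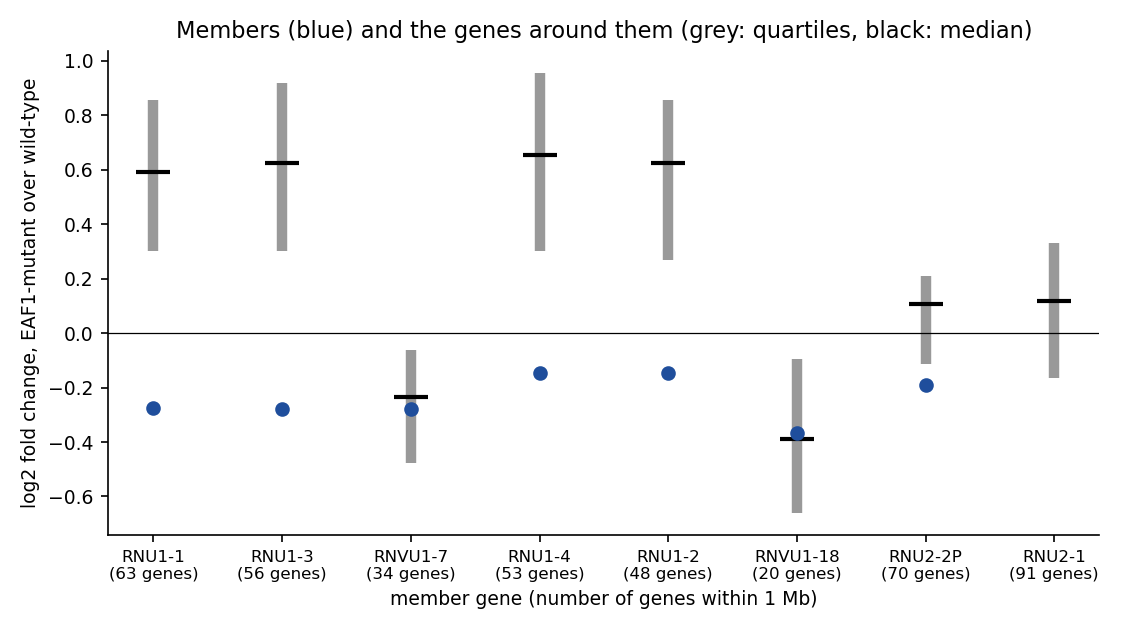
Log2 fold change of each tested member (blue) beside the median (black) and quartiles (grey) of the tested genes within 1 Mb of it other than snRNA genes. The medians around RNU1-1, RNU1-3, RNU1-4 and RNU1-2 lie between 0.59 and 0.65 while these members lie below 0.

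The variant U1 genes are those with RNVU1- symbols, mostly on chromosome 1, and run from RNVU1-29, with the sequence of RNU1-1, to diverged relatives. Of the 24 that are not members, 16 were tested, 13 were called lower and 0 higher by edgeR, and their median was -1.50 beside 0.01 for all tested genes. As background for the calls in this list and the later ones, 2676 of 28032 tested genes were lower and 3066 higher. Under library totals these were 1844 and 4152. Under library totals the median was -1.38 and 12 were called lower. RNVU1-31 (2 substitutions against RNU1-1) stood at 5.47, 5.45 and 4.61 CPM in wild-type libraries and at 0.150, 0.196 and 0.0292 CPM in EAF1-mutant libraries. Its EAF1-mutant libraries held 9, 11 and 2 counts, and its log2 fold change was -5.41 (SE 0.228, adjusted p = 6.57e-17). RNVU1-14 stood at 7.37, 6.84 and 6.76 CPM against 1.52, 1.94 and 1.87 CPM, with no overlap (log2 fold change -1.97, adjusted p = 1.14e-14). RNVU1-15 and RNVU1-30 were at -1.99 and -1.83. RNVU1-28, which differs from RNU1-1 by 1 substitution and was chosen after its values were seen, was at -0.59 (adjusted p = 3.85e-05; at -0.47 and not called under library totals), between these and the members.

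Within a library, the ratio of the U1 sum to the variant U1 sum does not depend on scaling. It was 19.6, 20.6 and 19.2 in wild-type and 23.6, 22.8 and 22.4 in EAF1-mutant libraries, higher in every EAF1-mutant library. The log2 ratio differed by 0.21 (exact two-sided permutation test, p = 0.1, the smallest that 3 against 3 libraries can give, 0.133 after Benjamini-Hochberg adjustment over the 8 ratios to other small RNAs). Most of the variant sum was RNVU1-29, whose sequence is that of RNU1-1. With RNVU1-29 taken out, a choice made after the data were seen, the variant genes summed to 38.1, 36.6 and 35.5 CPM in wild-type libraries and 11.3, 12.2 and 12.2 CPM in EAF1-mutant libraries. The ratio was then 65.1, 68.3 and 57.1 against 166, 157 and 168, a difference of 1.37 in log2 (exact permutation p = 0.1). Relative to the U1 sum, the variant genes other than RNVU1-29 were lower in each EAF1-mutant library than in each wild-type library. The p of 0.1 is the smallest this design can give. RNVU1-29 itself was at -0.15 with overlapping groups, beside -0.26 for the U1 sum. The ratio of the U2 sum to the variant sum differed by 0.29 (exact permutation p = 0.1, adjusted p = 0.133), and by 1.45 with RNVU1-29 taken out.

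The pseudogene list, 181 further genes whose symbols begin with RNU1- or RNU2-, had 22 tested genes, of which 3 were called lower and 0 higher by edgeR, with a median of -0.23 (-0.11 under library totals). RNU1-28P, identical to RNU1-1, stood at 4.97, 4.73 and 4.44 CPM in wild-type libraries and 2.87, 3.19 and 2.40 CPM in EAF1-mutant libraries (log2 fold change -0.75, adjusted p = 1.89e-06). RNU1-27P and RNU1-39P were at -0.16 and 0.18, short of the threshold. Among the genes named U2, all chosen after their values were seen, ENSG00000278048 (chr17:43251829-43252019) is identical to RNU2-1 and stood at 10.9, 7.67 and 8.81 CPM in wild-type libraries and 2.92, 3.75 and 3.20 CPM in EAF1-mutant libraries. Its groups did not overlap (log2 fold change -1.48, SE 0.111, adjusted p = 9.28e-12). ENSG00000274432 was at -1.17 and ENSG00000273709 at 0.01, both with the same 191 bases. With the genes named U2 added, the U2 sum was at -0.29 (adjusted p = 4.71e-04), an alternative also chosen after the data were seen.

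Other spliceosomal and small RNAs were set beside the members, where 9.55% of all tested genes were called lower. Of 12 genes of U4, U5 and U6, which join U1 and U2 in the spliceosome, 6 were called lower and 1 higher by edgeR, with a median of -0.58 (5, 1 and -0.47 under library totals). RNU5D-1, RNU4-1 and RNU5F-1 were at -1.06, -1.02 and -0.73, and RNU6-9 was at 0.54. Of the other U6 genes, which like RNU6-9 are made by RNA polymerase III, RNU6-8 was called lower at -0.51 (adjusted p = 0.00475; at -0.39 and not called under library totals), and RNU6-1, RNU6-2 and RNU6-7 were at 0.28, -0.08 and -0.20. These 4 were named after their values were seen. The ratio of the U1 sum to this list was 58.2, 67.6 and 60.1 in wild-type and 75.6, 72.8 and 86.2 in EAF1-mutant libraries, a log2 difference of 0.34 (exact permutation p = 0.1, adjusted p = 0.133). For the U2 sum that difference was 0.41 (exact permutation p = 0.1, adjusted p = 0.133). Of 941 snoRNA genes, 342 were tested, 59 were called lower and 12 higher by edgeR, and the median was -0.17 (40, 15 and -0.05 under library totals). U3 (ENSG00000212195), SNORA7A, SNORD13 and SNORA6 were at -1.65, -1.56, -1.34 and -1.15. The ratios of the U1 and U2 sums to all snoRNA counts differed by 0.29 and 0.37 in log2 (exact permutation p = 0.1, adjusted p = 0.133 for each).

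Against 5 abundant RNAs made by RNA polymerase III, 1 called lower and 1 higher by edgeR with a median of -0.30 (-0.18 under library totals), the ratios of the members overlapped between the groups. RN7SK stood at 14262, 13712 and 13661 CPM in wild-type libraries and 19827, 20394 and 20516 CPM in EAF1-mutant libraries (log2 fold change 0.54, adjusted p = 2.16e-13), while RPPH1, RN7SL2 and RN7SL1 were at -0.65, -0.31 and -0.30. The log2 ratio of the U1 sum to this list differed by -0.16 (exact permutation p = 0.2, adjusted p = 0.229), with overlapping groups, and by -0.08 without wild-type replicate 2 and -0.23 without wild-type replicate 3. That of the U2 sum differed by -0.08 (exact permutation p = 0.7, adjusted p = 0.7), and by 0.03 without wild-type replicate 2. The ratio of the U1 sum to the U2 sum was 27.8, 27.3 and 30.3 in wild-type and 26.8, 25.7 and 28.5 in EAF1-mutant libraries. The groups overlapped, with a log2 difference of -0.08 (exact permutation p = 0.4). The U2 sum in this ratio was nearly all RNU2-2P and left out the genes named U2.

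**Figure D5:**
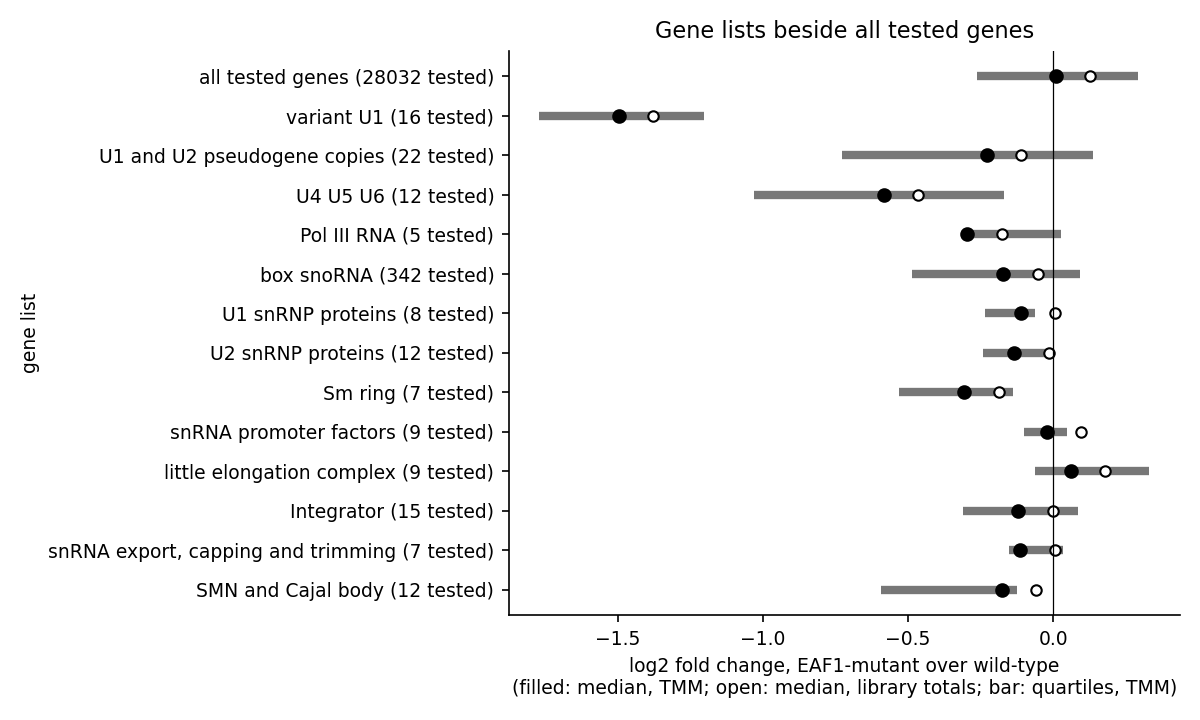
Median log2 fold change of the tested genes of each list with TMM (filled) and with library totals (open), and quartiles with TMM (bar), beside all 28032 tested genes. The variant U1 genes lie furthest from 0, at -1.50. The medians of U1 snRNP proteins, promoter factors and export, capping and trimming genes lie below 0 with TMM and above 0 with library totals.

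Genes for the proteins that U1 and U2 snRNA assemble with were counted by list. Of 8 genes of U1 snRNP proteins 2 were called lower and 0 higher by edgeR, with a median of -0.11 (1 lower and a median of 0.01 under library totals, which flips its sign and ends the call of PRPF39 at -0.47). LUC7L2 and PRPF39, which join U1 in choosing 5′ splice sites, were at -0.79 and -0.59, SNRPC at 0.38 and LUC7L at -0.12, the last at 0.00 under library totals. Of 12 genes of U2 snRNP proteins 2 were lower and 0 higher, with a median of -0.13, beside 9.55% of all tested genes lower (1 lower and -0.02 under library totals, where SF3B6 at -0.48 is not called). SNRPB2, which binds U2 directly, was at -0.87, SF3B6, which contacts the branch site, at -0.60, SF3A2 at 0.37 and SF3B4 at -0.36. Of the 7 genes of the Sm ring 2 were lower and 0 higher, with a median of -0.31 (-0.19 under library totals), and SNRPE, SNRPB, SNRPG and SNRPF were at -0.82, -0.73, -0.33 and -0.31.

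Genes that make and process snRNA were counted in the same way, beside 9.55% of all tested genes called lower. Of 9 genes of promoter factors 0 were called lower and 1 higher by edgeR, with a median of -0.02 (0.09 under library totals, which flips its sign). SNAPC4, the DNA-binding subunit of SNAPc, was at 0.64, POU2F1, which binds the octamer, at -0.33, GTF2B at -0.24 and SNAPC5 at 0.21. Of 9 genes of the little elongation complex and its relatives, EAF1 was lower and 2 were higher, EAF2 at 0.96 and ELL3 at 0.77, while ELL2 was at 0.33 and the median was 0.06 (0.18 under library totals). Of 15 Integrator genes INTS14, INTS11, INTS6 and INTS13 were furthest from 0, at -0.49, 0.44, -0.36 and -0.31, short of 0.5, and the median was -0.12. Under library totals that median was 0.00 to 2 decimals, and INTS11 was called higher at 0.56. Of 7 genes of export, capping and trimming, TOE1, which trims the 3′ tail, was at 0.44, SNUPN, an import factor, at -0.34, the export receptor XPO1 at -0.19 and TGS1, which modifies the cap, at -0.12, and the median was -0.11 (0.01 under library totals, which flips its sign, as it does that of TGS1). Of these, TOE1 was called higher under library totals, at 0.56. Of 12 genes of the SMN complex and Cajal bodies 4 were lower and 0 higher, GEMIN2 from 33.5 ± 0.958 to 16.8 ± 0.571 CPM (adjusted p = 1.81e-15), and GEMIN5, DDX20 and GEMIN8 at -0.67, -0.65 and -0.57, with a median of -0.18 (3 lower and -0.06 under library totals, where GEMIN8 at -0.46 is not called).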

How the data were processed

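The authors deposited raw counts per gene, made by trimming reads, aligning with HISAT2 on GRCh38 and counting over an Ensembl annotation by Rsubread. Trim Galore is named in the study's methods and Trimmomatic 0.38 in the notes deposited with the counts.

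Of 58395 gene identifiers, 57754 matched GENCODE v44, also on GRCh38, which gave symbols, biotypes and positions. The 641 others held 2.81% of the counts. The fit to the deposited counts used edgeR 4.0.16 (R 4.3.3): low counts were removed by filterByExpr, libraries were scaled by TMM, and every remaining gene had a quasi-likelihood test with Benjamini-Hochberg adjustment. In that fit the biological coefficient of variation was 4.20%. For sums, the counts of the copies were replaced by their total and the table was fitted again. Ratios were tested by exact permutation in Python 3.11.15 with SciPy 1.17.1.

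Members and lists were chosen with earlier results of these data known. Genes named were the 8 members, EAF1, the 4 with the largest log2 fold change in size in each list among those with a mean of at least 1 CPM, and the 3 most like each sum, except where the text says otherwise. Alternatives were DESeq2 1.42.0, a replicate block, library totals, TMM factors from protein-coding genes, leaving out each library in turn, no or a stricter low-count filter, and sums over other copies.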

Additional observations from a re-analysis of the deposited data

How the results depend on the processing

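All 115 alternatives to the fold changes of the 7 tested members and the sums kept the sign. With DESeq2 the summed U1 members were at -0.27 (adjusted p = 0.0252) and with library totals without TMM at -0.14 (adjusted p = 0.0265), both short of 0.01. With 1 library left out they ran from -0.35 to -0.20, and adjusted p ran from 1.99e-13 to 0.0265 over all alternatives. RNU1-1 to RNU1-4 alone gave -0.26.

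The summed U2 members passed 0.01 in some settings and not in others. They were at -0.19 with no filter on low counts (adjusted p = 4.36e-05), at -0.18 with the replicate block (adjusted p = 0.00369), at -0.21 with all genes named RNU2- (adjusted p = 0.00822) and at -0.29 with the genes named U2. They did not pass it with DESeq2 (-0.20, adjusted p = 0.313) or with library totals (-0.07, adjusted p = 0.402). With 1 library left out they ran from -0.32 to -0.11, and over all alternatives from -0.32 to -0.07, with adjusted p from 5.86e-06 to 0.402. The cause was not tested.

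With the replicate block the U1 sum was at -0.26. Correlations between same-numbered replicates of the groups, the pairing that the block uses, were -0.00767, -0.0172 and 0.00738.

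Members called stayed at 0 under each alternative that kept both limits. With no limit on the fold change, 4 members were lower at an adjusted p under 0.01, against 21.3% of all tested genes. At 0.05 there were 7, against 25.8%. With library totals these counts were 1 and 4, and the share of all tested genes was not counted. Genes called over the table ran from 4484 to 6192. The log2 ratio of the U2 sum to the RNA polymerase III list ran from -0.20 to 0.0285 with 1 library left out, the last without wild-type replicate 2. The ratios to other lists kept their sign. The U1 to U2 ratio ran from -0.12 to -0.03, with the U2 side nearly all RNU2-2P. With the genes named U2 added, the U2 sum was at -0.29, beside -0.26 for the U1 sum. The ratio to that larger U2 sum was not tested.

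The mutant was 1 line, and what the line carries besides the mutation cannot be told apart from it. Whether replicates came from separate cultures is not stated. The 5 identical U1 members cannot be separated by reads of 100 bases that lie within the RNA, so their single values depend on how the authors placed such reads. These counts are levels of RNA, not of transcription. RNU2-1 had too few counts to pass the filter of edgeR, and most loci of its array had none or few. With 3 libraries of each group, a permutation test cannot give a p under 0.1.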

Other observations

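Identical counts in every library were found for RN7SK and a gene named 7SK, for RN7SL1 and ENSG00000283029 and for RMRP and ENSG00000269900, so the deposited table counts some RNAs under 2 identifiers. As shares of all counts, RN7SK held 1.33% ± 0.0310 in wild-type and 2.11% ± 0.0320 in EAF1-mutant libraries (SD, n = 3). All other snRNA genes together held 0.270% ± 0.0290 and 0.244% ± 0.00772, most of which was U1. All snoRNA genes held 0.967% ± 0.0796 and 0.717% ± 0.0460, and mitochondrial genes 1.15% ± 0.0743 and 1.21% ± 0.0708.

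Wild-type replicate 3, low in U1 and U2, was also the lowest library for the summed variant U1 genes among the wild-type libraries, at 105 CPM beside 126 and 122, and for the summed snoRNA genes, at 9093 CPM beside 10643 and 10491. Most of the variant sum was RNVU1-29, at 88.4, 85.0 and 70.0 CPM in wild-type replicates 1, 2 and 3. Without it the variant genes summed to 38.1, 36.6 and 35.5 CPM, so most of that drop was in RNVU1-29.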
